A study of Mus musculus with 4 samples.

Results

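The cells described here are neutrophil precursors rich in Ngp, the neutrophilic granule protein, in a single-cell RNA library of mouse tibia. They were chosen by measured values. A cell had to hold at least 1600 genes with a UMI (a unique molecular identifier, which marks 1 captured RNA molecule), at most 10% mitochondrial UMIs, at least 100 Ngp UMIs per 10000 UMIs of the cell, under 20 Retnlg UMIs per 10000, and under 50 each of Col1a1 and Col2a1. Of 14181 barcodes, 8256 passed the limits on genes and mitochondrial UMIs, and 505 of these met the whole rule. They made up 6.12% of the cells kept (95% Clopper-Pearson interval 5.61 to 6.66%) and held 6483444 UMIs. Of 566 cells with Ngp at 100 or more, 42 were removed by the Retnlg limit and 19 by the collagen limits.

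The library came from 2 tibiae of 1 male mouse at postnatal day 6 with the genotype Col10a1Cre;Rosa26-Tdtomato;Irx3 +/Δ;Irx5 +/-, which the labels call an Irx3/5 heterozygous control and which received no special treatment. The tibiae were minced and digested with no sort described, the study itself set aside clusters with Ptprc (CD45, the common antigen of blood cells), and the 4 sequencing entries in the labels share 1 deposited matrix and were treated as 1 library, which the labels do not state outright. The Cre is driven by Col10a1, a gene of hypertrophic chondrocytes, so the tdTomato reporter was meant to trace that lineage and not the blood. There is 1 mouse and no wild-type animal, so no difference below has a replicate check: intervals cover counting error only, and none of the comparisons carries a test.

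Neutrophils are made in the marrow in ordered stages, each with its own granules. Promyelocytes fill primary granules with myeloperoxidase and serine proteases, myelocytes fill secondary granules with lactoferrin, cathelicidin and lipocalin, and metamyelocytes and band cells add tertiary granules rich in gelatinase. The myelocyte is the last stage that divides, and the transcription factor C/EBP epsilon, encoded by Cebpe, is needed for the secondary granule genes.

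The name myelocyte was checked against the other genes that mark the stage. Ngp, which set the rule, ran from 101 to 742.5 UMIs per 10000 with a median of 374.8. Camp, the cathelicidin precursor of secondary granules, ran from 84.4 to 916.4 per 10000 with a median of 527.5, and no cell lacked it. Ltf, lactoferrin, which binds iron in secondary granules, ran from 0 to 171.7 per 10000 with a median of 65.1. It had a UMI in 497 cells (98.4%). Chil3, a chitinase-like protein abundant in mouse neutrophil precursors, ran from 0 to 129.3 per 10000 with a median of 32.6. It had a UMI in 483 cells (95.6%). In 147 Bglap-rich osteoblasts, which should lack these genes, a UMI was seen in 36.7% for Camp, 10.2% for Ltf and 2.72% for Chil3 at a median of 20607 UMIs, against 11672 in the cells described. At 5000 UMIs a cell the Ltf share was 96.6 against 4.76% and the Chil3 share 92.1 against 1.36%. Camp, Ltf and Chil3, which did not set the rule, were thus above this background, and the cells are called myelocyte-like below.

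The edge of the rule cuts through a continuous range. In the 15 cells just outside the Ngp limit (80 to 100 per 10000, with the rest of the rule met), median Camp was 373 per 10000, median Ltf 1.27 and median Elane 19.5. In the 22 cells just inside, with the lowest Ngp above the limit, the medians were 422, 2.74 and 20.5. At the Retnlg limit, the 10 cells just inside (15 to 20 per 10000) had medians of 385 for Ngp, 71.7 for Ltf and 0 for Mmp8, and the 11 cells just outside (20 to 25) had medians of 471, 113 and 1.15. At the Ngp limit Camp and Elane were close on both sides, while median Ltf was higher inside it and median Chil3 lower (4.85 against 5.71). At the Retnlg limit median Ltf and Mmp8 were higher outside it. These medians rest on 10 to 22 cells, and those of Mmp8, and of Ltf at the Ngp limit, are low. The class is a range set by limits, with cells on both sides of each. A further 77 barcodes with at least 500 but under 1600 genes met the other limits.

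The myelocyte-like cells were shallower than most cells of the library and spent many UMIs on a few genes. Their UMIs per cell ran from 5340 to 48021 with a median of 11672, against a median of 13957.5 over all cells kept. The 6 genes with most UMIs (S100a9, S100a8, Camp, Stfa1, Ngp and BC100530) took 33.3% of all their UMIs, against 2.21% over all cells kept. At a fixed 5000 UMIs a cell, a median of 1451 genes was seen.

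The sequences just upstream of 4 granule genes are shown because the class and its neighbours are described by them: Ngp, Camp and Ltf for secondary granules, and Elane, neutrophil elastase, for primary granules. They come from RefSeq on GRCm38.p6 and are written 5′ to 3′ on the gene's strand. Each holds the bases of the window from 250 bases before the start that lie upstream of the first annotated exon base. Ngp is at chr9:110419558-110419746 (+), Camp at chr9:109849618-109849706 (-), Ltf at chr9:111019042-111019270 (+) and Elane at chr10:79886062-79886246 (+). The genes themselves lie at chr9:110419747-110423012 for Ngp (ENSMUSG00000032484), chr9:109847379-109849617 for Camp (ENSMUSG00000038357), chr9:111019271-111042767 for Ltf (ENSMUSG00000032496) and chr10:79886247-79888215 for Elane (ENSMUSG00000020125) in GENCODE M21 on GRCm38. Capitals mark a match on either strand to TTGCNNAA, a C/EBP-type word, or to GAGGAA, a PU.1-type word (the factor encoded by Spi1).
Ngp: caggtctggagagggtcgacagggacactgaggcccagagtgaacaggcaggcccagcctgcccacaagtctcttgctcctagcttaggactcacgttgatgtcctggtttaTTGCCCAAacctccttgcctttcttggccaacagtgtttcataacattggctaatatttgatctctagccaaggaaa
Camp: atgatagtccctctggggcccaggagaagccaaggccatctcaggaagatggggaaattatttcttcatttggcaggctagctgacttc
Ltf: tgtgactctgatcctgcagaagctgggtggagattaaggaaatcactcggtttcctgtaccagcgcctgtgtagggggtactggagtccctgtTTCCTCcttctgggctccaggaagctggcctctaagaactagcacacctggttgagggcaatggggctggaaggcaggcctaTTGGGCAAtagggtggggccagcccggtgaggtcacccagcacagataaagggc
Elane: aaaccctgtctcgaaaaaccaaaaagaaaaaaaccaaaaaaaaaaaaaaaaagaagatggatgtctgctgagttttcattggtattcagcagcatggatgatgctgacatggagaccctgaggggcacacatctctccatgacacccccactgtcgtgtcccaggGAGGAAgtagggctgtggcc

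Counted to the first annotated exon base, the C/EBP word of Ngp began 77 bases upstream. A further C/EBP match of Ngp, 11 bases before the RefSeq start, lies past that exon base and is not printed. In Ltf the C/EBP word began 54 bases upstream and the PU.1 word 136 bases upstream. In Elane the PU.1 word began 20 bases upstream, and the Camp stretch held neither word. Over the 250 bases before the RefSeq start, TTGCNNAA was in 9.56% of 32851 promoters and in 5 of the 12 secondary granule genes with a promoter in the table (41.7%), but in 0 of 7 primary granule genes. GAGGAA was in 23.3% of all promoters, in 6 of 7 primary granule genes (85.7%) and in 6 of 12 secondary granule genes (50%). These are matches of letters, counted over few genes, and no binding was measured.

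Secondary granule transcripts were compared with those of 349 promyelocyte-like cells, taken as cells with at least 10 Elane and 10 Mpo UMIs per 10000, Ngp under 100 and Retnlg under 20, under the same collagen limits. Ltf was at 5499 CPM (UMIs per 1000000 UMIs of the class) in the myelocyte-like cells and 29.5 CPM in the promyelocyte-like cells, 187-fold higher (161 to 217). No promyelocyte-like cell reached the Ltf median of the myelocyte-like cells, the highest standing at 35.5 per 10000. Since both classes are set by limits on Ngp, Elane, Mpo and Retnlg, and all genes come from the same cells, the differences describe the classes and are not tests of them.

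**Figure D1:**
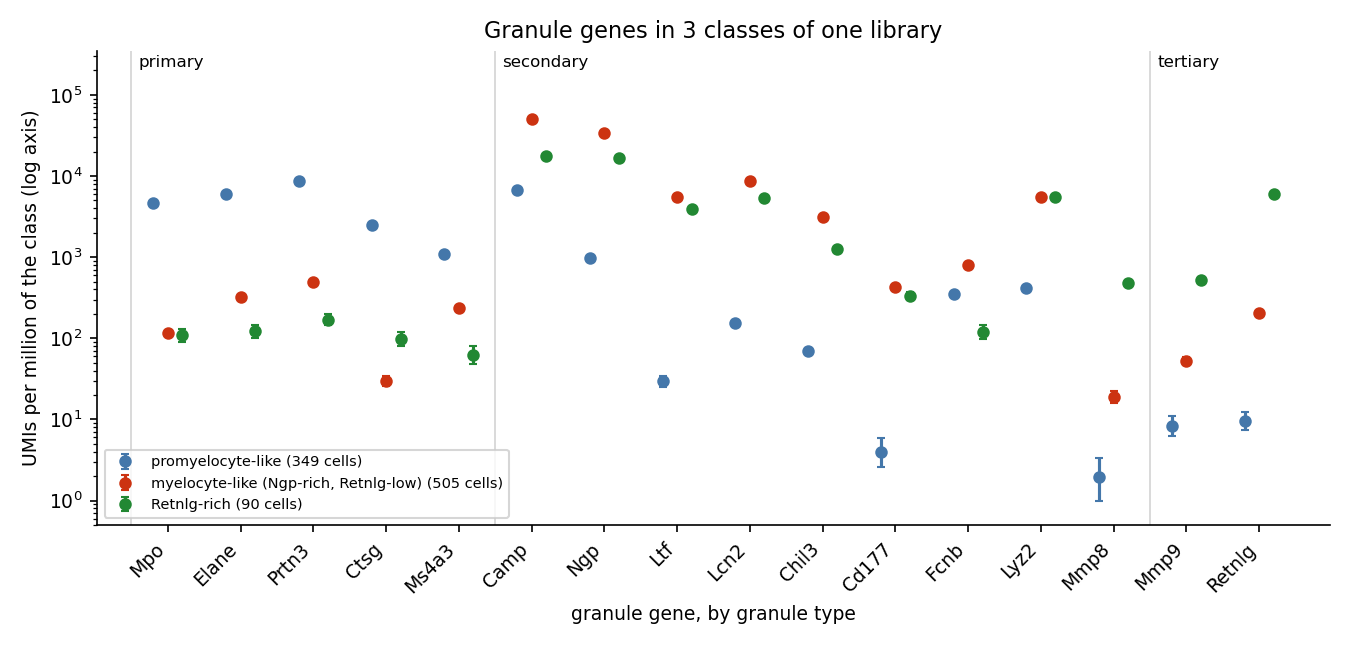
Level of primary, secondary and tertiary granule genes, in CPM on a log axis, in promyelocyte-like, myelocyte-like and Retnlg-rich cells of 1 library. Bars are exact Poisson intervals for counting error, and a reader should see Ltf at 29.5 CPM in promyelocyte-like and 5499 CPM in myelocyte-like cells while Elane goes the other way, from 6065 to 326 CPM.

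Most of the secondary granule list stood in the same direction. Of 14 genes listed, 13 had enough counts to compare with the promyelocyte-like cells (50 CPM in either class and 100 UMIs over both), 10 were at least 4-fold higher and none was 4-fold lower, with a median log2 ratio of 4.37. Without Ngp, whose direction the limits fix, 9 of 12 were at least 4-fold higher and the median was 4.05. Over all 2717 genes compared, 97 were at least 4-fold higher (3.57%), 129 were at least 4-fold lower (4.75%), and the median log2 ratio was -0.27. Lcn2, lipocalin 2, which binds bacterial siderophores, ran from 0 to 240.6 per 10000 with a median of 97.7 and had a UMI in 504 cells. It stood at 8696 against 156.5 CPM, 55.6-fold higher (52.2 to 59.3). No promyelocyte-like cell reached that median either. Chil3 was at 3156 against 69.7 CPM, 45.3-fold higher (41.2 to 49.9). Cd177, a surface glycoprotein of neutrophils, was at 425 against 4.02 CPM, 106-fold higher (71.4 to 164).

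Camp and Fcnb differed less between the classes. Camp stood at 49924 CPM in the myelocyte-like cells and 6824 CPM in the promyelocyte-like cells, 7.32-fold higher (7.24 to 7.39). Of the 349 promyelocyte-like cells, 267 (76.5%) had a Camp UMI, against 36.7% of 147 Bglap-rich osteoblasts, which should lack it, and at 5000 UMIs a cell the shares were 60.9 and 11.6%. Of the promyelocyte-like cells, 5 exceeded the median of the myelocyte-like cells. Fcnb, a ficolin that binds microbial sugars, was at 800 against 352 CPM, 2.27-fold higher, and 85 promyelocyte-like cells exceeded the myelocyte-like median. Olfm4, olfactomedin 4, which is known to mark only some neutrophils, had a UMI in 183 myelocyte-like cells (36.2%). Its per-cell values ran from 0 to 98.5 per 10000 with a median of 0, so its 988.5 CPM came from a minority of the cells.

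Primary granule genes stood the other way. Of 8 listed, 7 could be compared, 6 were at least 4-fold lower in the myelocyte-like than in the promyelocyte-like cells and none was 4-fold higher, with a median log2 ratio of -4.12. Without Mpo and Elane, 4 of 5 were at least 4-fold lower and the median was -2.36. Mpo, myeloperoxidase, was at 115 CPM against 4704, and Elane was at 326 CPM against 6065. Both define the promyelocyte-like class through minimums, which favours their direction. Prtn3, proteinase 3, which was not in any limit, was at 498 against 8656 CPM, 17.4-fold lower (16.8 to 18). Its mean was 32.9 UMIs in the 70 myelocyte-like cells with Ngp of 100 to 200 per 10000 and 0.103 in the 68 with 500 to 800. Ctsg, cathepsin G, was at 30.1 against 2497 CPM, 83.0-fold lower (72.1 to 96.1). Ms4a3, a membrane protein of granulocyte and monocyte precursors, was at 237 against 1093 CPM, 4.61-fold lower. Elane ran from 0 to 67.4 per 10000 in the myelocyte-like cells with a median of 0, and had a UMI in 144 of them (28.5%). At 5000 UMIs a cell its share was 21.98%, against 2.04% of the osteoblasts. Bpi, a bactericidal primary granule protein, had 0 UMIs in them, which allows up to 0.463 CPM.

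**Figure D2:**
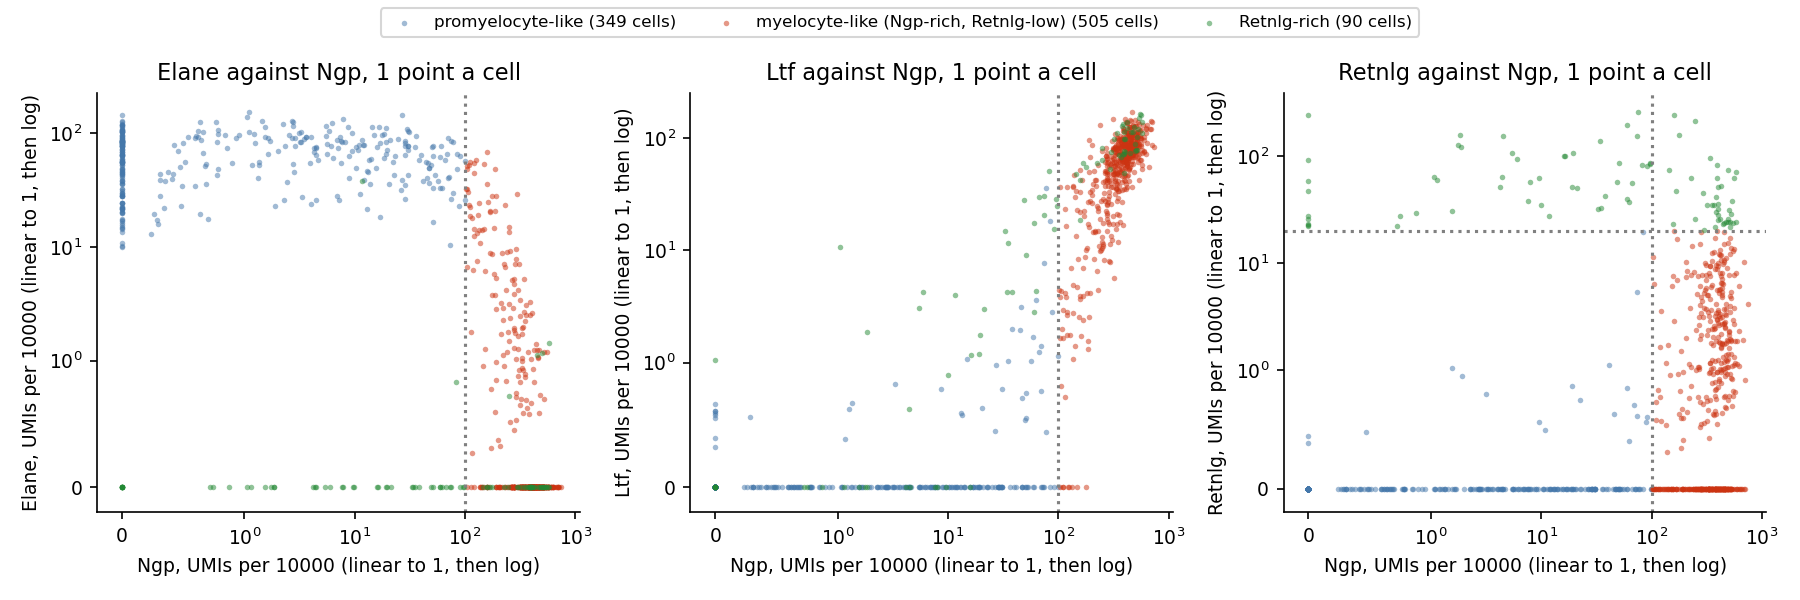
Elane, Ltf and Retnlg against Ngp in every cell of the 3 classes, in UMIs per 10000 on axes that are linear to 1 and log above, with dotted lines at the limits of 100 for Ngp and 20 for Retnlg. The 505 myelocyte-like cells form a sloping band in which Elane is lower and Ltf higher at higher Ngp, and the Retnlg-rich cells overlap it in Ltf.

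Calgranulin and stefin A genes were among those with most UMIs. S100a9 ran from 240.5 to 1744 per 10000 with a median of 1139. It was at 103304.5 CPM in the myelocyte-like cells and 18232 CPM in the promyelocyte-like cells. S100a8, its partner in calprotectin, was at 75154.5 against 17160 CPM. The stefin A genes encode inhibitors of cysteine proteases, and all 7 could be compared. Of them, 5 were at least 4-fold higher than in the promyelocyte-like cells, with a median log2 ratio of 2.78. Stfa1 was at 40240.2 against 12712 CPM and Stfa3 at 4917 against 95.9 CPM, 51.3-fold higher. These neighbouring genes are near copies, so reads may be split among them and each single value is uncertain.

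Genes of protein production were lower than in the promyelocyte-like cells. Of 16 secretory pathway genes, 14 were compared, 7 were at least 4-fold lower (Calr, Pdia4, Pdia6, Sdf2l1, Manf, Sec61b and Ssr4) and none was 4-fold higher, with a median log2 ratio of -1.93. Calr, calreticulin, a chaperone of the endoplasmic reticulum, was at 111 against 974 CPM, 8.74-fold lower. Of the 349 promyelocyte-like cells, 344 exceeded the myelocyte-like median of Calr. Srm, spermidine synthase, was at 7.10 against 133 CPM, and Gar1, a protein of ribosomal RNA modification, was at 9.25 against 103.5 CPM. UMIs of 91 ribosomal protein genes made up 9.91% of all UMIs of the myelocyte-like cells, 28.9% of those of the promyelocyte-like cells and 21.8% over all cells kept.

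Part of any share depends on what the most abundant genes take. With Ngp, Camp, Ltf, Lcn2, S100a8 and S100a9 left out of the totals (27.6% of the UMIs of the myelocyte-like cells and 4.34% of those of the promyelocyte-like cells), all log2 ratios against the promyelocyte-like cells shift by 0.40 and the median goes from -0.27 to 0.13. Compared anew on that scale, 178 genes were at least 4-fold higher and 59 at least 4-fold lower, in place of 97 and 129. The secretory and primary granule lists kept their direction, but the S phase list (median -0.17 to 0.23) and the list of glycolysis and glycogen genes (-0.39 to 0.01) changed sign.

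Transcription factors of granulopoiesis differed less than granule genes. Of 18 listed, 11 were compared with the promyelocyte-like cells, 3 were at least 4-fold higher (Klf2, Klf5 and Id2) and none was 4-fold lower, with a median log2 ratio of 0.55. Cebpe, required for secondary granules, ran from 0 to 18.5 per 10000 with a median of 5.62 and had a UMI in 498 myelocyte-like cells. It was at 574 against 178 CPM, 3.23-fold higher, and 15 promyelocyte-like cells exceeded the myelocyte-like median. Klf5, a zinc finger factor, was at 166 against 14.5 CPM. Spi1, which encodes PU.1 and acts throughout the myeloid lineage, was at 358 against 244 CPM. Myb, a factor of early progenitors, was at 38.9 against 123 CPM. Cebpa, which starts granulocyte commitment, had too few counts to be among the 11, with 11 UMIs (1.70 CPM) against 66 (10.6 CPM).

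Some genes of effector function were at least 4-fold higher than in the promyelocyte-like cells, as were 3.57% of all genes compared. Of the 6 NADPH oxidase genes, all were compared and 1 was at least 4-fold higher than in the promyelocyte-like cells, with a median log2 ratio of 1.12. That gene was Cybb, the catalytic subunit that makes superoxide, at 1620.1 against 243.5 CPM. Alox5, which starts leukotriene synthesis, was at 68.9 against 5.31 CPM, 12.98-fold higher, the only one of 3 leukotriene genes compared to pass 4-fold. Ly6g, the surface protein used to define mouse neutrophils, was at 63.1 against 1.13 CPM and was the only one of 7 adhesion and retention genes compared to do so. Fpr2, a receptor for formylated peptides, was at 97.8 against 2.09 CPM, among 6 of 14 late neutrophil genes compared that were at least 4-fold higher. Slc2a3, a glucose transporter of neutrophils, was at 75.6 against 3.38 CPM, 22.4-fold higher and the only one of 12 glycolysis and glycogen genes to pass 4-fold. The median of these 12 was -0.39, with 8 below 0.

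**Figure D3:**
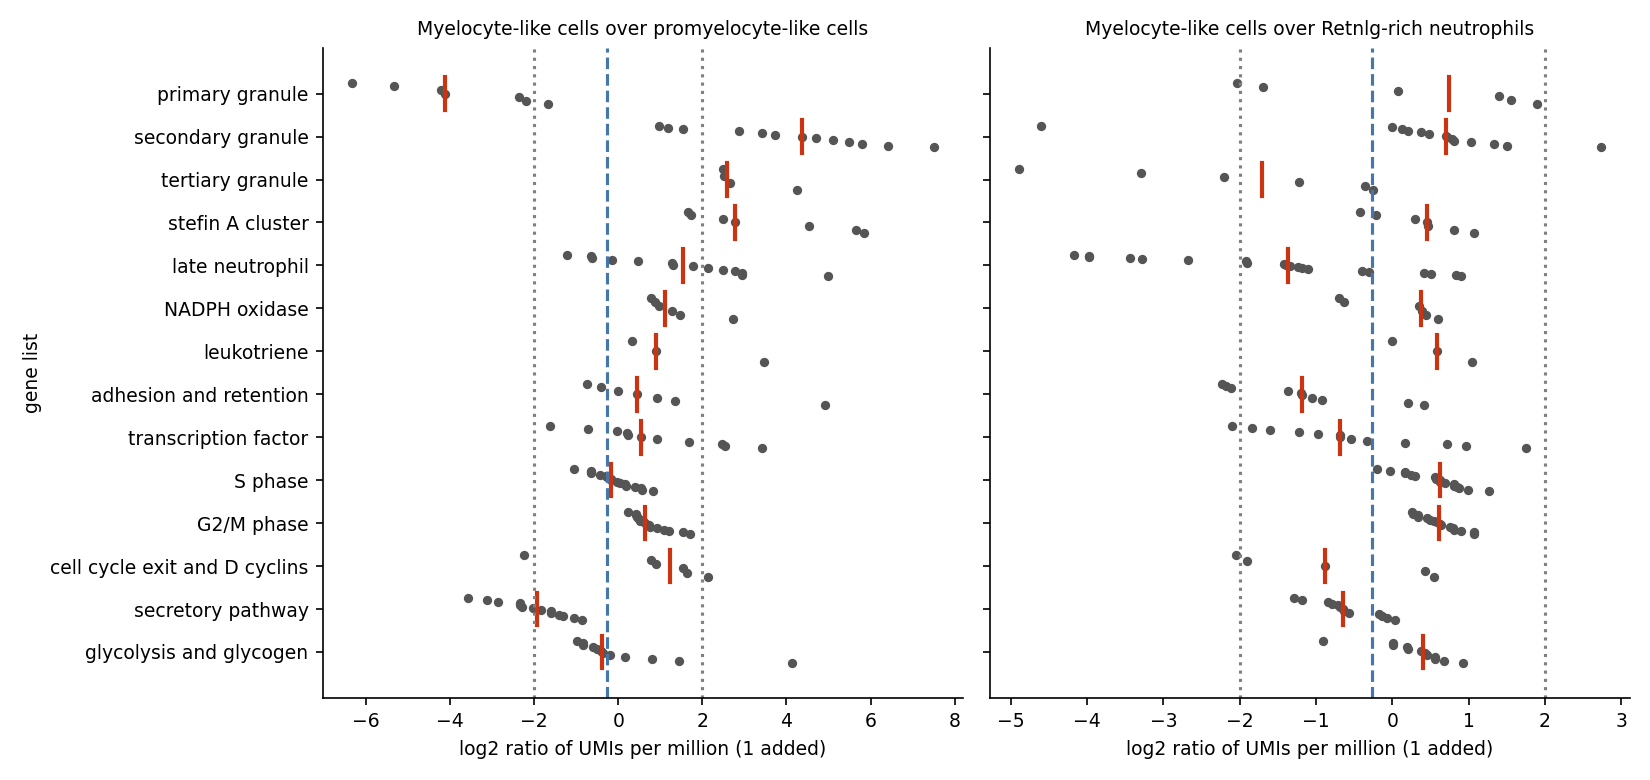
Log2 ratio of CPM (with 1 added) for each compared gene of 14 lists, myelocyte-like cells over promyelocyte-like cells (left) and over Retnlg-rich cells (right), 1 point a gene, with list medians in red, 4-fold as dotted lines and the median of all genes compared, -0.27 on both sides, dashed. Against promyelocyte-like cells the primary granule median is -4.12 and the secondary granule median 4.37, and against Retnlg-rich cells the tertiary granule median is -1.71 (-2.36, 4.05 and -1.22 without Mpo, Elane, Ngp and Retnlg, which set the classes).

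The later neighbours were 90 Retnlg-rich cells, taken as cells with at least 20 Retnlg UMIs per 10000 at any level of Ngp, under the same collagen limits. Retnlg encodes a resistin-like protein of late neutrophils. Of the 90 cells, 49 had Ngp under 100 and 41 had Ngp at 100 or more. Scrublet, which marks likely doublets, marked 44.9% of the 49 and 14.6% of the 41, against 6.53% of the myelocyte-like cells. Haemoglobin genes and other erythroid genes also summed to 41182 CPM in the 90 cells and 9844 CPM in the myelocyte-like cells. In the 41 cells the erythroid sum was 29096.8 CPM. The part of doublets and of red cell RNA in the differences was not tested, and values are given below for all 90 cells and, for the genes named, also for the 41.

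More genes were at least 4-fold lower than at least 4-fold higher in the myelocyte-like cells compared with the Retnlg-rich cells. Of 2809 genes compared with all 90 cells, 7 were at least 4-fold higher (0.249%) and 191 at least 4-fold lower (6.8%). Without the cells marked as doublets, the counts were 16 and 168. With the 41 cells, 2461 genes were compared, 12 were at least 4-fold higher (0.488%) and 33 at least 4-fold lower (1.34%). The median log2 ratio was -0.27 with the 90 cells and 0 with the 41. With the 6 abundant genes named above left out of the totals, ratios to the 90 cells shift by 0.25 (14 genes at least 4-fold higher and 152 lower, compared anew) and those to the 41 by 0.

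Tertiary granule genes were lower in the myelocyte-like than in the Retnlg-rich cells, whichever set was used. Of 8 listed, 6 were compared, and 3 were at least 4-fold lower with either set (Mmp9, Adam8 and Retnlg, the last by rule), with medians of -1.71 and -1.51. Without Retnlg, 2 of 5 passed 4-fold with either set, and the medians were -1.22 and -0.85. Against the promyelocyte-like cells, all 4 tertiary granule genes compared were at least 4-fold higher (Mmp9, Itgam, Itgb2 and Retnlg), with a median of 2.58. Of all genes compared with those cells, 3.57% were. Without Retnlg it was 3 of 3 tertiary granule genes, with a median of 2.51. Mmp9, gelatinase B, was at 52.4 CPM in the myelocyte-like cells, 523 CPM in the 90 cells and 559 CPM in the 41. Mmp8, neutrophil collagenase, was at 18.97, 483 and 506 CPM. It was 25.5-fold lower than in the 90 cells (20.9 to 31.3), although it is listed as a secondary granule gene. Mmp8 had a UMI in only 31 myelocyte-like cells (6.14%). Of 20 late neutrophil genes compared with the 90 cells, 6 were at least 4-fold lower (Il1b, Fpr1, Ccl6, Clec4d, Clec4e and Asprv1), with a median of -1.37. Of the 20, 16 were below 0 and 4 above 0. Among the 4 were S100a8, at 75154.5 against 40299 CPM, and S100a9, at 103304.5 against 58305 CPM. Fpr1, Clec4d, Clec4e and Asprv1 passed 4-fold with the 41 cells too, with a median of -1.42 over 18 genes. Il1b, the cytokine interleukin 1 beta, was at 51.1 CPM against 822 with the 90 cells but 143 with the 41.

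Secondary granule genes other than Mmp8 did not separate the myelocyte-like from the Retnlg-rich cells in 1 direction. Of 14 compared with the 90 cells, 12 were above 0, with a median of 0.70, but with the 41 cells the median was -0.42. Ltf was at 5499 CPM in the myelocyte-like cells, 3935 in the 90 cells and 8659 in the 41. Lcn2 was at 8696, 5360 and 11347 CPM. Cd177 was at 425, 329 and 657 CPM. The direction of all 3 thus turned with the choice of Retnlg-rich cells. Fcnb kept its direction, at 800, 120 and 294 CPM, 6.66-fold higher than in the 90 cells (5.54 to 8.08). Cebpe did too, at 574, 170 and 373 CPM.

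Primary granule genes also depended on that choice, and in the 90 cells Elane, Prtn3, Mpo and Ctsg came from few cells. Mpo and Prtn3 each had a UMI in 12 of the 90, Elane in 6 and Ctsg in 2. Elane was at 326 CPM in the myelocyte-like cells, 123 in the 90 Retnlg-rich cells and 10.2 in the 41. Of the 90, 1 cell held 38.01 Elane UMIs per 10000, and no other exceeded 1.438. Among the alternative settings the log2 ratio of Elane ran from -0.73 to 5.86. Prtn3 was at 498, 170 and 2.55 CPM. Over the 90 cells its median was 0 and its highest value 49.01 UMIs per 10000. With the 41 cells, 3 of 4 primary granule genes compared were at least 4-fold higher in the myelocyte-like cells (Mpo, Elane and Prtn3), while with the 90 cells none was. The 41 cells held only 4 UMIs each of Mpo and Elane and 1 of Prtn3. Elane and Prtn3 averaged 24.8 and 32.9 UMIs in the 70 myelocyte-like cells with Ngp of 100 to 200 per 10000. In the 68 with Ngp of 500 to 800 the means were 0.0441 and 0.103. At Ngp of 400 or more, Elane was below its CPM in the 41, but within the counting interval of that level (2.78 to 26.2 CPM). Ctsc, which activates the granule proteases, was 1 of 6 compared with the 90 cells and was at least 4-fold lower, at 37.8 against 157 CPM, but with the 41 cells, at 25.54 CPM, its direction turned.

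Among the other genes with the largest ratios over the Retnlg-rich cells, several came from few cells. Of the UMIs of Rbp4, a retinol carrier, 97.1% lay in 5 myelocyte-like cells. The figure for Ibsp, bone sialoprotein, was 93.8%, for Spp1, osteopontin, 88.1%, and for Mmp13, a collagenase of bone and cartilage, 81.4%. These ratios therefore describe a handful of cells and not the class. In the other direction, all Rgs5 UMIs of the Retnlg-rich class lay in 5 of its cells.

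Within the myelocyte-like cells, Elane and Ltf ran in opposite directions along Ngp. The cells were placed in 5 ranges of Ngp, 100 to 200 per 10000 (70 cells), 200 to 300 (82), 300 to 400 (143), 400 to 500 (142) and 500 to 800 (68). Elane was at 1321 CPM in the lowest range and then at 232, 47.9, 7.84 and 4.35 CPM. Ltf was at 1630, 3337, 6034, 8226 and 9277.5 CPM. Cell by cell, the lowest range was mixed: 37 of its 70 cells had at least 1 UMI per 10000 of both genes, 10 of Elane without Ltf and 23 of Ltf without Elane. In the highest range, 66 of 68 cells had Ltf without Elane at that limit and 2 had both.

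**Figure D4:**
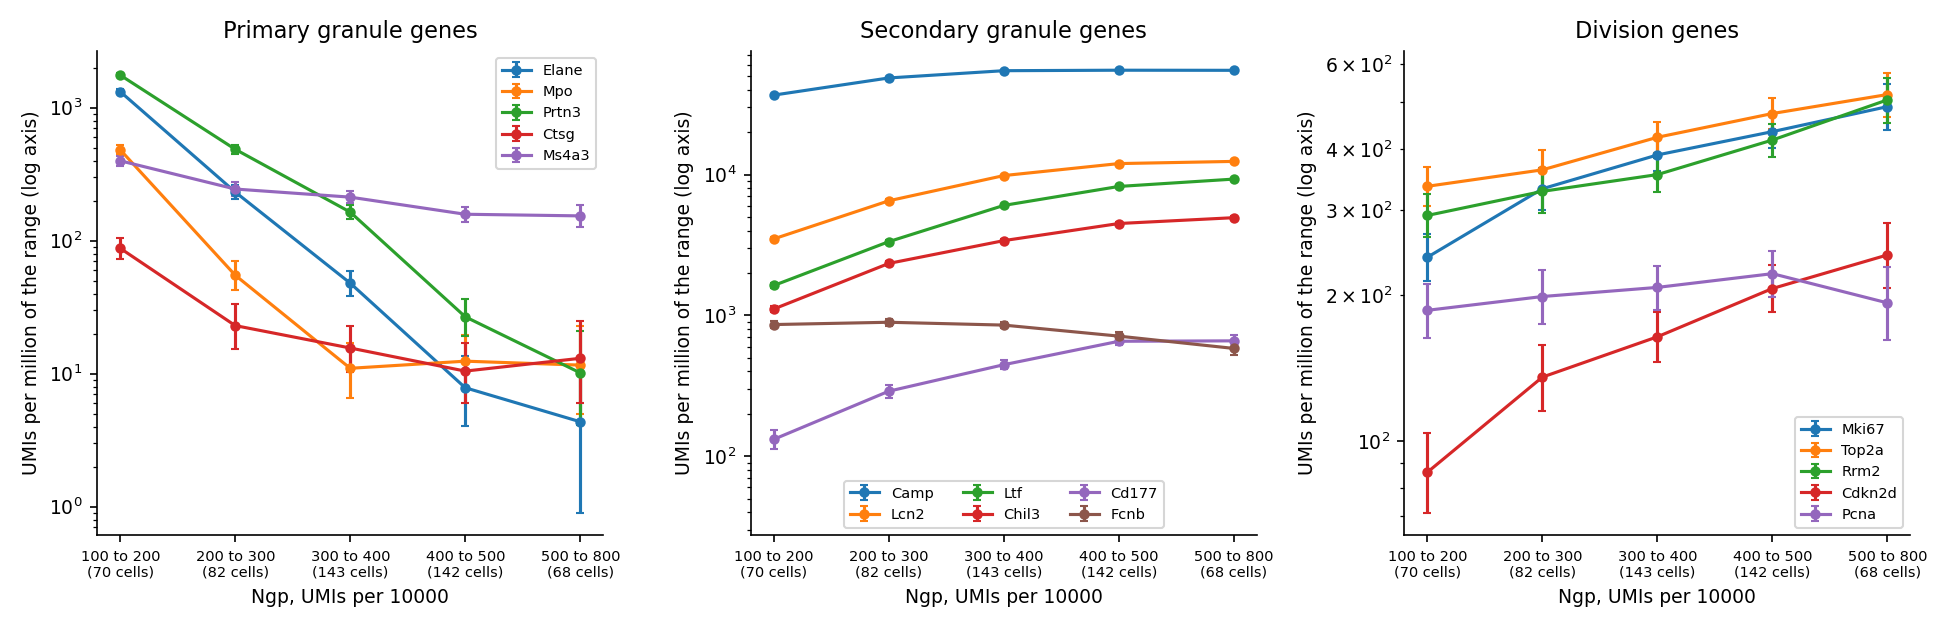
CPM in 5 ranges of Ngp within the 505 myelocyte-like cells, on log axes with exact Poisson intervals, for primary granule, secondary granule and division genes. Elane goes from 1321 to 4.35 CPM and Ltf from 1630 to 9277.5 CPM, while Mki67 goes from 239 to 490 CPM.

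The other granule genes differed in how steeply they ran. Prtn3 went from 1758 CPM in the lowest Ngp range to 10.1 in the highest, and Mpo from 483 to 11.6. Ms4a3 went only from 399 to 154. Lcn2 went from 3491 to 12389 CPM, Chil3 from 1110 to 4937 and Cd177 from 132 to 659. Camp was near its top level early, at 36611, 48461, 54569, 54999.9 and 54901 CPM. Fcnb had its highest level in the second range (894 CPM) and its lowest in the last (583 CPM), unlike Lcn2, Chil3 and Cd177. Cebpe went from 379 to 697 CPM and Cybb from 919 to 2029. These are shares of a mean total that went from 18740.1 to 10147.9 UMIs per cell, and per-cell means of Cebpe and Cybb were not compared.

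Depth and composition moved along the same ranges. Median UMIs per cell went from 16770 in the lowest Ngp range to 10253.5 in the highest, and the ribosomal protein share went from 15.8 to 5.65%. Per cell, without division by depth, Elane still went from a mean of 24.8 UMIs to 0.0441 and Ltf from 30.5 to 94.2. Camp per cell went from 686 to 557 UMIs. Of the 14 cells with over 50 haemoglobin UMIs per 10000, 5, 3, 4, 2 and 0 were in the 5 ranges, and without them Elane stood at 1468, 241, 49.9, 7.99 and 4.35 CPM. How far depth and Ngp's own part of the total shape these trends was not tested.

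Across single cells, the genes most like Ngp included secondary granule and stefin genes, but not all of them. Spearman's correlation with Ngp was computed over the 505 cells of 1 library, in UMIs per 10000, for 2127 genes at 50 CPM or more, as a description. Ltf had the highest value, 0.747, followed by Lcn2 at 0.662, Stfa2 at 0.637, Anxa1, annexin A1, at 0.627, and Stfa2l1 at 0.556. Chil3 (0.512), Wfdc21, Lyz2, Ifitm6 and Stfa3 (0.473) completed the first 10. Camp stood at only 0.225, Stfa1 at -0.014 and Fcnb at -0.211. Among the 10 lowest were the ribosomal protein genes Rpl30, Rpl32 and Rpl13 and the translation factor gene Eef1a1, at -0.63. Elane and Prtn3 had a correlation of 0.708 with each other, and Prtn3 and Ltf one of -0.747. Ngp itself had a correlation of -0.497 with the total UMIs of the cell, which these genes share.

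Transcripts of dividing cells were widespread in the myelocyte-like cells. A sum over 22 G2/M genes ran from 0 to 126.9 UMIs per 10000 with a median of 29.1, and 408 of 505 cells (80.8%, interval 77.1 to 84.1%) had a sum of 10 or more. The share was 67.3% in promyelocyte-like cells, 34.4% in the 90 Retnlg-rich cells and 36.6% in the 41. In 147 Bglap-rich osteoblasts, cells of which few are held to divide, it was 15.6%, with a median sum of 0.568 at a median of 20607 UMIs. Near the limit, 20 myelocyte-like cells had sums of 8 to 12.

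**Figure D5:**
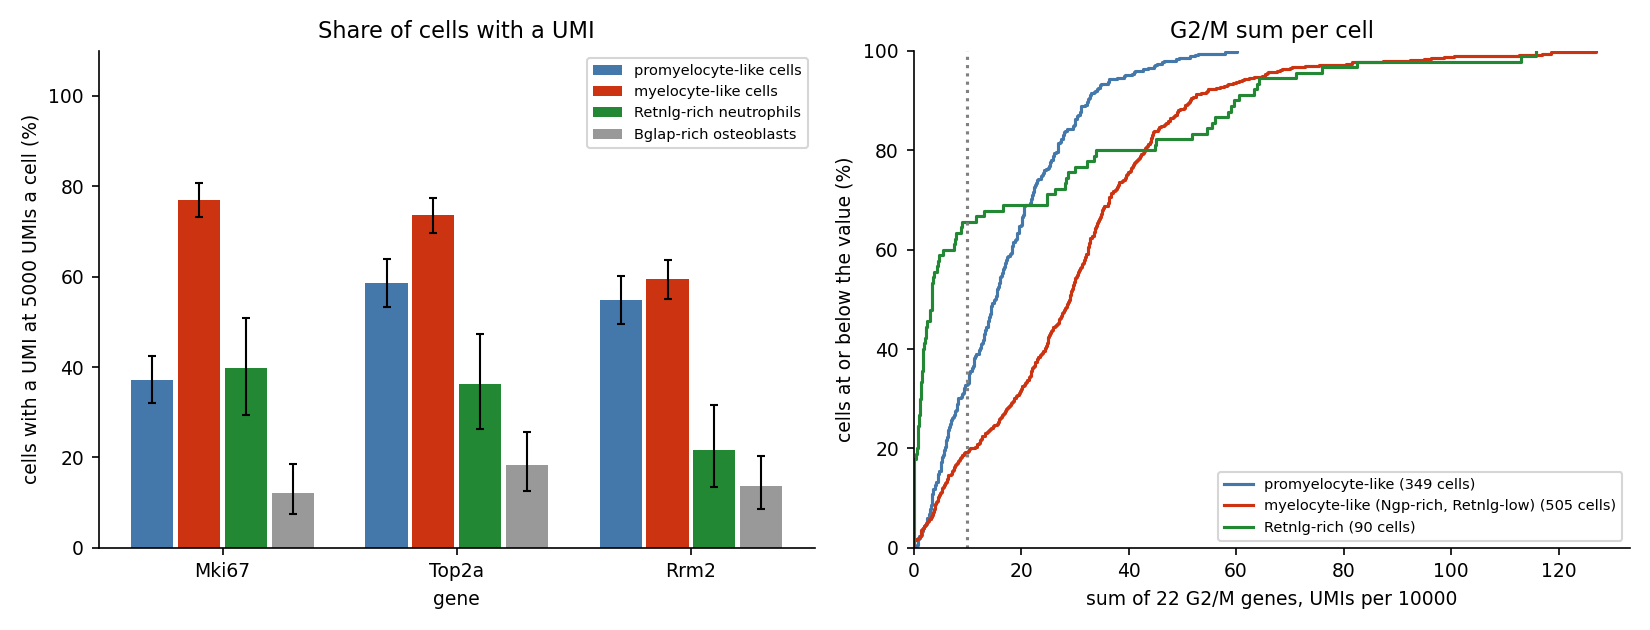
Left, percent of cells with a UMI of Mki67, Top2a or Rrm2 after thinning each cell to 5000 UMIs, with Clopper-Pearson intervals. Right, percent of cells at or below each value of the G2/M sum in UMIs per 10000, with the limit of 10 dotted, where the myelocyte-like curve lies right of the promyelocyte-like curve over most of its length (medians 29.1 and 15.2).

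Single division genes were compared at equal depth. After thinning to 5000 UMIs, Mki67, which encodes the Ki-67 antigen of cycling cells, had a UMI in 77.0% of myelocyte-like cells (73.1 to 80.6%), against 91.9% before thinning. The thinned share was 37.1% in promyelocyte-like cells, 39.8% in Retnlg-rich cells (43.9% in the 41) and 12.2% in the osteoblasts. Top2a, topoisomerase II alpha, gave 73.7, 58.6, 36.4 and 18.4% in the same order. Rrm2, a subunit of ribonucleotide reductase needed in S phase, gave 59.4, 54.9, 21.6 and 13.6%. In the 41 cells the Top2a and Rrm2 shares were 41.5% and 29.3%. Thinning left out 1 promyelocyte-like cell and 2 Retnlg-rich cells with under 5000 UMIs. The myelocyte-like share was highest for all 3 genes, though for Rrm2 it was close to that of the promyelocyte-like cells.

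Both phase lists were higher than in the Retnlg-rich cells. All 16 G2/M genes compared were above 0 against the promyelocyte-like cells (median 0.63) and against the 90 Retnlg-rich cells (0.61), none of them past 4-fold. With the 41 cells, 15 of 16 were above 0. Of 17 S phase genes, 15 were above 0 against the 90 Retnlg-rich cells and 17 against the 41, while against the promyelocyte-like cells the sign of the median depended on scaling, as given above. Among 6 genes of cell cycle exit and D cyclins compared with the promyelocyte-like cells, Cdkn2d, the inhibitor p19, was at 161 against 35.7 CPM, and Ccnd2, cyclin D2, at 19.1 against 94.2 CPM. Ccnd3, cyclin D3, was at 201 against 63.7 CPM.

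As shares of UMIs, Mki67 and Rrm2 were higher in the highest Ngp range than in the lowest, as was the median G2/M sum (32.02 and 21.45 per 10000). The mean total per cell was 10147.9 UMIs in the highest range and 18740.1 in the lowest. Counts per cell of these genes were not compared, and the part of depth was not tested. Mki67 was at 239, 332, 389, 435 and 490 CPM from the lowest Ngp range to the highest, and Rrm2 went from 292 to 506. Cdkn2d went from 86.1 to 242 CPM over the same ranges, and Ccnd2 from 41.2 to 4.35. The share of cells with a G2/M sum of 10 or more was 80, 80.5, 76.2, 81.7 and 89.7%.

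Along Retnlg the share was lower in the last range. It was 85.2% in the 298 cells with Retnlg under 1 per 10000, 83.3% in the 126 cells from 1 to 5, and 60.5% in the 81 cells from 5 to 20. Of the tertiary granule genes other than Retnlg, the 5 with at least 100 UMIs were all higher in the last range than in the first (median log2 ratio 0.53), as were 18 of 19 such late neutrophil genes (median 0.52), none of it tested. Over all 5094 genes with as many UMIs, 51.7% were higher in the last range and the median was 0.01. Osteoblast genes were also higher, 4 of 5 with a median of 0.67 and sums of 1273.5 against 908.9 CPM, and their part in this was not tested. Mmp8 was at 7.19, 29.2 and 53.1 CPM, Mmp9 at 22.1, 61.7 and 168, and Ly6g at 39.2, 75.6 and 145. Olfm4 was at 821, 1063 and 1587 CPM. These ranges were cut on Retnlg, so its own levels are not given.

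The 97 cells with a G2/M sum under 10 were compared with the other 408 in genes that the sum did not use. Mmp9 was at 103 CPM in the 97 and 42.9 CPM in the 408, Retnlg at 356 and 175, and Mmp8 at 39.8 and 15.04. Lyz2, lysozyme, was at 7726 and 5137 CPM. Ltf hardly differed, at 5391 and 5519 CPM. Gfi1, a repressor needed for neutrophil formation, was at 2.91 and 17.8 CPM, and Cebpe at 463 and 595. Gfi1 and Mmp8 rest on few counts, 100 and 123 UMIs over all 505 cells, with 46.3% of those of Mmp8 in 5 cells. The 97 cells were also shallower, with a median of 9551 UMIs against 12248 in the 408. All 5 tertiary granule genes other than Retnlg with at least 100 UMIs were higher in the 97, with a median log2 ratio of 0.28, and so were 15 of 19 late neutrophil genes, with a median of 0.43. Over all 5094 genes with as many UMIs, 46.6% were higher in the 97 and the median was -0.03. Osteoblast genes moved further than either list, 4 of 5 higher with a median of 0.75, and summed to 1617 CPM in the 97 and 755 in the 408, and their part in these differences was not tested.

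Lists of other cell types, except T cell genes, summed to less in the class than over all cells kept, and erythroid genes had the highest sum. The 14 cells with over 50 haemoglobin UMIs per 10000 held 95.2% of the haemoglobin UMIs, 13 of them at 1242.3 to 3828.3 per 10000, while the median over all 505 cells was 4.87. Scrublet marked 0 of these 14 and 33 of the 505. Erythroid genes summed to 9844 CPM, and to 496 CPM without the 14 cells. Osteoblast genes summed to 892 CPM, with Col1a1 the most abundant at 258.5 CPM, against 16403 CPM over all cells kept, and chondrocyte genes to 775 CPM against 24284, with Col2a1 at 490.5 CPM. The limits on Col1a1 and Col2a1 removed 19 cells and so hold these sums down. B lineage genes summed to 216 CPM, with Ighm the most abundant at 62.5 CPM and 80% of the UMIs in 13 cells. Macrophage genes summed to 140.5 CPM, against 286.5 over all cells kept, with C1qb the most abundant at 46.1 CPM and 94.7% in 13 cells.

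The remaining lists each summed to 62.6 CPM or less. Monocyte genes summed to 62.6 CPM, with Klf4 the most abundant at 26.2 CPM. Endothelial genes summed to 40.3 CPM, osteoclast genes to 31.9, T cell genes to 11.7, megakaryocyte genes to 11.1, eosinophil genes to 10.5, and basophil and mast cell genes to 1.85. Ear1 and Ear6, ribonucleases of eosinophils, Fcer1a, the mast cell IgE receptor chain, and Cd3e, Cd3g and Trbc2 of the T cell receptor complex were at 0 UMIs.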

How the data were processed

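Gene matrices were deposited by the authors as counts of UMIs per gene and barcode, not normalized. Per the labels and methods they used Cell Ranger 3.1.0 on mm10, and Seurat 3 later. No source used here names the annotation release. A second deposited matrix of exogenous sequences, also counts, was joined by barcode. Barcode and gene names were taken as deposited by the authors. The minimum of 1600 genes follows the study, and all remaining limits were set for this work.

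The 505 cells, the comparison classes and the gene lists were chosen with earlier results of these data known. Counts were summed over the cells of a class and divided by its total (CPM), and ratios were taken on log2(CPM + 1) for genes with 50 CPM in either class and 100 UMIs over both. A 4-fold ratio is a size rule and not a test. Intervals are exact Poisson for sums, conditional binomial for ratios and Clopper-Pearson for shares, at 95%, and cover counting error only. The limit for 0 UMIs is 3 counts. Genes named are those of the lists, the 20 with most UMIs, the 15 with the largest ratio each way, and the 10 highest and 10 lowest in correlation with Ngp.

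Doublets were marked with Scrublet in scanpy 1.11.5 (rate 10%, seed 1) and kept, and were left out as an alternative. Python 3.11.15, numpy 2.4.6, scipy 1.17.1, pandas 2.3.3 and matplotlib 3.10.9 were used. The ratio step was tested on simulated data. Gene positions are from GENCODE M21 (30934 of 31053 identifiers found). Alternatives were other limits on genes, mitochondrial UMIs, Ngp, Retnlg, CPM and thinning, no doublets, and, added after seeing the data, no haemoglobin-rich cells and Retnlg-rich cells with Ngp of at least 100 only. The P56 sample was not analysed here.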

Additional observations from a re-analysis of the deposited data

Results flagged for a closer look

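WPRE, a sequence in the tdTomato reporter transcript, was counted in the exogenous sequence matrix, which the comparisons above do not use. It had 268 UMIs over the myelocyte-like cells, in 78 of them (15.4%, 12.4 to 18.9%), with up to 108 UMIs in 1 cell. The share in the other cells kept was 29.6%. The tdTomato sequence itself had 3 UMIs in 2 of the myelocyte-like cells (0.396%), against 2.84% of the other cells, and the CRE and EGFP sequences had 0 UMIs. Over 14 WPRE UMIs, the cutoff that the study applied to osteogenic cells, were held by 3 of the 505 cells and by 420 of the other 7751. No library without the reporter was analysed.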

How the results depend on the processing

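The number of myelocyte-like cells ran from 424 (Retnlg under 5) to 582 (at least 500 genes), within 1.5 times the 505 reported. The share with a G2/M sum of 10 or more was 71.7% with at least 1000 genes, 86.89% with at least 2000 genes, 84.67% with Retnlg under 5, and 88.91% and 68.32% with the sum's limit at 5 and 20. The thinned share with Mki67 was 72.12% with at least 1000 genes and 62.18% at 3000 UMIs. Genes past 4-fold against Retnlg-rich cells numbered 198, but 55 with a minimum of 200 CPM, 126 with 10 CPM added and 45 against the cells with Ngp of at least 100. Against promyelocyte-like cells they numbered 226, but 417 and 85 with minimums of 10 and 200 CPM and 137 with 10 CPM added. Other than through fewer genes or cells compared, the causes were not tested. Without the haemoglobin-rich cells, the counts were 221 and 226 and the G2/M share 80.65%, and without doublets 184, 273 and 81.14%. The genes higher than in Retnlg-rich cells alone numbered 7, and 2 to 23 among the alternatives (23 with at least 1000 genes). The log2 ratio of Ctsc to Retnlg-rich cells was -2.03 and turned to 0.55 against those with Ngp of at least 100. Of 22 granule genes followed, 12 had both signs among the alternatives against Retnlg-rich cells, including Ltf (-0.66 to 0.94), Lcn2 (-0.38 to 1.11), Cd177 (-0.63 to 0.74) and Elane (-0.73 to 5.86), and 0 against promyelocyte-like cells. Only Ctsc among them was past 4-fold as reported. Of 176 CPM values of the 22 genes in the myelocyte-like cells among the alternatives, 103 lay outside the reported counting interval. Of 462 log2 ratios of these genes, 58 moved by at least 1.5 times and 1, past 4-fold as reported, changed sign. Against promyelocyte-like cells, the log2 ratio of Prtn3 ran from -5.59 to -3.71, of Elane from -6.34 to -3.81 and of Mpo from -7.69 to -4.94. No paired analysis was possible because the 4 sequencing entries are counted together in 1 matrix, and for the same reason no replicate could be left out. With 1 mouse, variation between animals is unknown, and genes with few UMIs are limited by depth.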

Other observations

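These genes were chosen after their values were seen. Inhba, a subunit of activin, had 905 UMIs in 329 myelocyte-like cells, at 140 CPM against 3.06 CPM in the promyelocyte-like cells, 82.8 CPM in the 90 Retnlg-rich cells and 201.8 CPM in the 41 of these with high Ngp. Cldn1, claudin 1, had 463 UMIs in 240 cells, at 71.4 CPM against 1.77, 53.8 and 125.2 CPM in the same order. Cd3d, a chain of the T cell receptor complex, had 76 UMIs in 54 cells (10.7%) although Cd3e, Cd3g and Trbc2 were at 0. At 5000 UMIs a cell, Cd3d was seen in 5.54% of myelocyte-like cells, 21.6% of Retnlg-rich cells (14.6% of the 41), 0% of promyelocyte-like cells and 0% of the osteoblasts. Ear2, an eosinophil-associated ribonuclease, had 55 UMIs in 45 cells.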
